A study of Homo sapiens with 12 samples.

Results

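Oxidative phosphorylation, the step of respiration that makes most of the ATP of a cell, is carried out by 5 protein complexes of the inner mitochondrial membrane. Complex I oxidises NADH, complex II oxidises succinate, complex III passes electrons to cytochrome c, complex IV passes them to oxygen, and complex V is the ATP synthase. Mitochondrial DNA encodes only a few of the subunits, and the genes for all the others lie in the nucleus. These nuclear genes were described here as loci at which 2 R-loop-related proteins may have ChIP-seq peaks. An R-loop forms when a transcript hybridises to its template and leaves the opposite DNA strand unpaired, and R-loops are known to form often near the starts of actively transcribed genes. The subunit genes are a set of short, broadly transcribed genes whose starts are known targets of the transcription factors NRF1, GABPA (an ETS factor) and YY1.

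Members were taken from the RefSeq gene table for hg38 by symbol. They were the protein-coding nuclear genes with symbols in NDUFA, NDUFB, NDUFC, NDUFS or NDUFV plus a digit (complex I), SDHA to SDHD (complex II), UQCR and CYC1 (complex III), COX4 to COX8 (complex IV) and ATP5 (complex V). The rule found 88 of 19866 protein-coding nuclear genes, of which 37 were in complex I, 4 in complex II, 10 in complex III, 17 in complex IV and 20 in complex V. Of these, 2 were readthrough genes that share a start with a member (NDUFC2-KCTD14 with NDUFC2, and ATP5MF-PTCD1 with ATP5MF). The former NDUFA4 and NDUFA4L2 are named COXFA4 and COXFA4L2 in the table and fall outside the symbol rule, as does NDUFAB1, the acyl carrier subunit of complex I.

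The peaks came from Flag ChIP-seq in U2OS cells, a human osteosarcoma line, with a doxycycline-inducible (tet-on) transgene. The transgene encoded either REXO4-D386A, a REXO4 exonuclease without nuclease activity, or RNaseH1-D210N, an RNase H1 that can no longer cut the RNA within an RNA:DNA hybrid. Cells of each line were grown with 1 µg/ml doxycycline or without it for about 60 h. No group is labelled as lacking an endogenous gene, and whether each line is 1 clone is not given in the labels. In each line, 2 ChIP libraries and 1 input library came from cells with doxycycline and the same number from cells without it, which makes 12 libraries in 8 groups. The study asked whether the 2 proteins bind R-loops. The values used here were 2 lists of peaks in hg38 coordinates, 1460 for REXO4 and 54623 for RNaseH1, so no value has a replicate error. Transcription was not measured in these files, so the activity of a gene is not known from them.

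A peak was counted as at a gene boundary when it overlapped the 1 kb on either side of the gene's first or last base by at least 1 bp, and as inside when it overlapped the gene only elsewhere. Fold enrichment is the authors' own deposited value, the ratio of the pileup at a summit to the pileup expected there. It is used within the RNaseH1 list only. Its 95% interval is an exact Poisson interval that covers counting error alone.

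The sequences below show the start of 1 subunit gene with an RNaseH1 peak in each complex, and of 2 isoform genes without a peak. For each complex the gene shown had the highest fold among genes with 1 listed start, a −log10 q of at least 5 and no other gene in reach of the peak or across the printed bases. The folds of SDHB (2.45) and ATP5MJ (2.39) were nonetheless below 3.07, the median of the whole RNaseH1 list. Each sequence is the 250 bases before the RefSeq transcript start in hg38, written in the direction of transcription. Capitals mark matches, on either strand, to the letters GCGC, any base, then TGCGC (NRF1), CCGGAAG (ETS), AAGATGGCG (YY1), GGGCGG (Sp/KLF) and CCAAT.
NDUFS7 (complex I, chr19:1383657-1383906, plus strand): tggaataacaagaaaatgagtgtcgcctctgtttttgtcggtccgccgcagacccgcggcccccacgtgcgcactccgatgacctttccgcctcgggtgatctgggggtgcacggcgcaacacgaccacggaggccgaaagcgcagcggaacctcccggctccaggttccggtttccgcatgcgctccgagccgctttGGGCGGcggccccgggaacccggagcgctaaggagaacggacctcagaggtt
SDHB (complex II, chr1:17054033-17054282, minus strand): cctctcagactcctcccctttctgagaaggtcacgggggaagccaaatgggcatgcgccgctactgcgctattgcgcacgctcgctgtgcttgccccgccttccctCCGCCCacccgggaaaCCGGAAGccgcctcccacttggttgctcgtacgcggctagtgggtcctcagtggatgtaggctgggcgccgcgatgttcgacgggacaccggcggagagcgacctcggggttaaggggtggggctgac
UQCRC1 (complex III, chr3:48609647-48609896, minus strand): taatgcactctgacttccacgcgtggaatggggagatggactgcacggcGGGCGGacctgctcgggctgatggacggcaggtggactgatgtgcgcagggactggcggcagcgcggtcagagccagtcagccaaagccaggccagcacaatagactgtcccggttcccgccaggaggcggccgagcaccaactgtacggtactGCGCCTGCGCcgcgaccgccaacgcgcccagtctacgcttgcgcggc
COX8A (complex IV, chr11:63974370-63974619, plus strand): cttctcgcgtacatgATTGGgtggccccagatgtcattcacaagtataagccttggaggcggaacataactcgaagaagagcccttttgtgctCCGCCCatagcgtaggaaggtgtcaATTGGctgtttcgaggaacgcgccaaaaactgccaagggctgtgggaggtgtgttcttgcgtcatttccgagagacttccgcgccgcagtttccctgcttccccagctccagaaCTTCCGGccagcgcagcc
ATP5MJ (complex V, chr14:103921530-103921779, minus strand): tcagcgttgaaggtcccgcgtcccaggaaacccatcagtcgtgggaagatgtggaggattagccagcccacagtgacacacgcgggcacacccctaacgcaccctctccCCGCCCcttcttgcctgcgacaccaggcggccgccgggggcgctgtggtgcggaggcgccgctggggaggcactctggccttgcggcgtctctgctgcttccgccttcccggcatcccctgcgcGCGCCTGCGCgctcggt
COX8C (complex IV, chr14:93346932-93347181, plus strand): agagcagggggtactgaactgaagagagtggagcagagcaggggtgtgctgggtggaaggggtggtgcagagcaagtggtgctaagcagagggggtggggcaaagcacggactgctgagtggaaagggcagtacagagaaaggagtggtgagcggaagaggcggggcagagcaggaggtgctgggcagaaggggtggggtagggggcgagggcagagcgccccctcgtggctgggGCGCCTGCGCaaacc
COX6A2 (complex IV, chr16:31428361-31428610, minus strand): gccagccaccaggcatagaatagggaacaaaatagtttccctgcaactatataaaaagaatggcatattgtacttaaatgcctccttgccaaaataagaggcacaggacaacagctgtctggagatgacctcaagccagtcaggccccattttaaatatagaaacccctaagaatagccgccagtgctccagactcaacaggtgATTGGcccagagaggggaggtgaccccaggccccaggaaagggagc

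All 250 bases shown for NDUFS7, SDHB, UQCRC1 and ATP5MJ lay under the gene's RNaseH1 peak. For COX8A, 75 of the 250 bases did, since that peak lay mostly downstream of the start. No RNaseH1 peak touched the COX8C or COX6A2 sequences. The printed bases held 30 CpG dinucleotides in NDUFS7, 24 in SDHB, 26 in UQCRC1, 16 in COX8A and 26 in ATP5MJ, against 8 in COX8C and 1 in COX6A2. G and C together made up 65.2% of the COX8C bases, close to the 65.6% of NDUFS7. The contrast between these 2 was thus in CpG number and not in this sum. The balance of G and C did differ between their promoter windows, which are defined below. The excess of G over C on the coding strand, as a share of both, was 0.399 for COX8C and 0.030 for NDUFS7. Whether this bears on the peaks was not tested. The COX8C bases lie within the larger gene UNC79. COX8C and COX6A2 do not stand for all genes without a peak. The promoter windows at inner starts of COX7A2 and NDUFA5, which also had none, held 22 and 15 CpG.

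RNaseH1 peaks lay at most subunit genes. Of the 88, 76 had a peak at a boundary (86.4%, 95% exact binomial interval 77.4 to 92.8), against 13337 of all 19866 protein-coding genes (67.1%). The interval treats genes as independent, and neighbouring genes can share a peak. A further 3 subunit genes had a peak inside only (3.41%, against 11.4% of all protein-coding genes), and 9 had none. In all, 103 distinct RNaseH1 peaks lay at a boundary, and 37 more lay inside. A single boundary peak was present at 51 genes, 2 at 22 genes, and 3 or more at 3 genes. Subunit genes are short, with a median of 9.08 kb against 24.5 kb over all protein-coding genes. Among genes of 10 kb or less, 40 of 46 subunit genes had a boundary peak (87.0%), against 54.9% of all such genes. Among longer genes it was 36 of 42 (85.7%), against 71.9%. The share was thus above that of all protein-coding genes in both length classes, and no test of this difference was made.

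**Figure D1:**
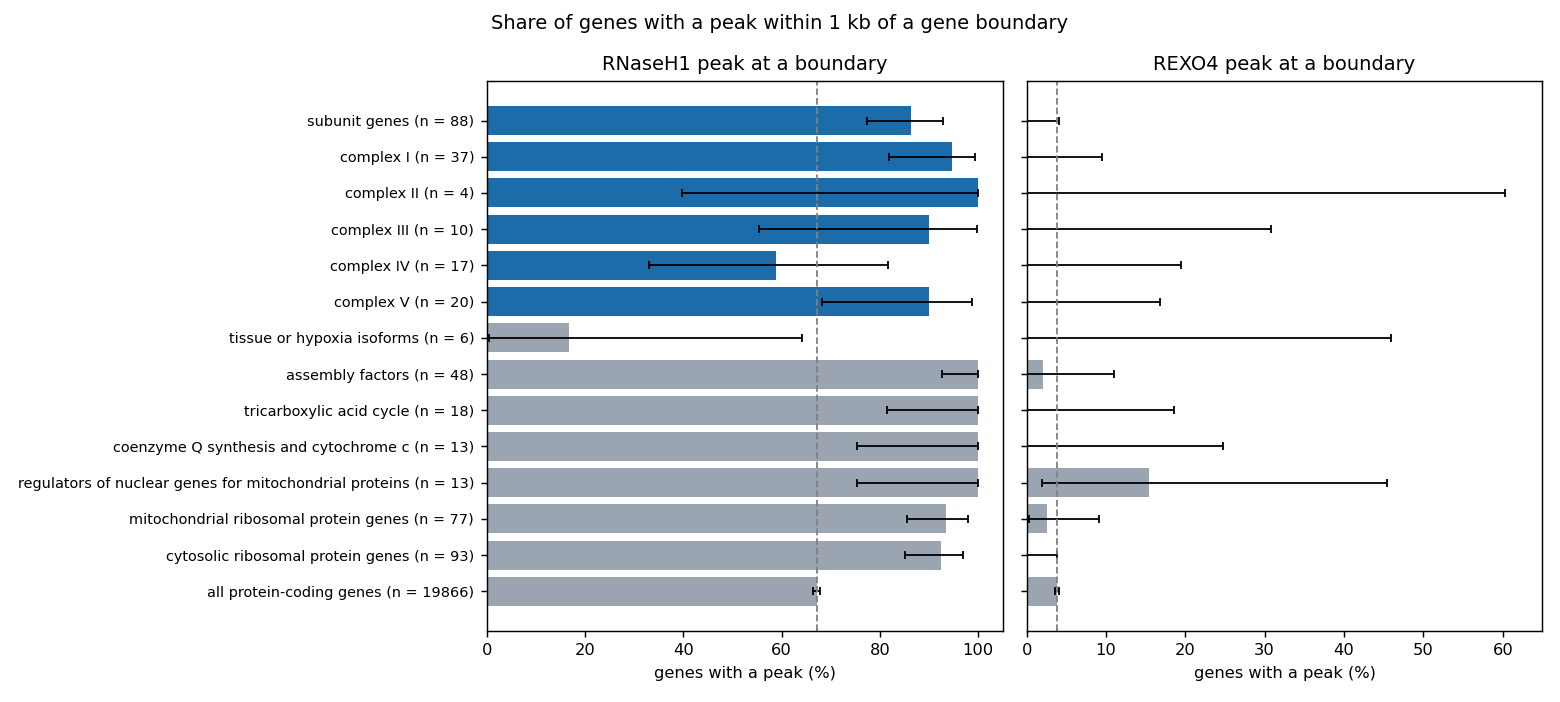
Percentage of genes with a peak within 1 kb of a gene boundary, for RNaseH1 (left) and REXO4 (right), with exact 95% binomial intervals as bars and the share over all protein-coding genes as a dashed line. Complexes I, II, III and V have RNaseH1 shares of 90% or more, complex IV has 58.8%, and the REXO4 bar is at 0 in every complex.

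No subunit gene had a REXO4 peak, either at a boundary or inside. The count was 0 of 88, which allows a share of up to 3.41% by the limit of 3 counts and up to 4.11% by the exact 95% interval, against 758 of all 19866 protein-coding genes (3.82%) with a REXO4 peak at a boundary. A further 1.69% of all protein-coding genes had one inside only. The share depended on length. Among genes of 10 kb or less, 0 of 46 subunit genes had a REXO4 boundary peak, against 2.67% of all such genes. Among longer genes it was 0 of 42, against 4.26%. By strand, REXO4 peaks lay at the start of 0 of 70 subunit genes, against 3.4% of all protein-coding genes, and at the end of 0 of 70, against 0.271%. Among the 76 subunit genes with an RNaseH1 boundary peak the count was also 0, which allows up to 3.95% by the limit of 3 counts and up to 4.74% by the exact interval, against 5.2% of all protein-coding genes with an RNaseH1 boundary peak. None of the 140 RNaseH1 peaks at or in subunit genes overlapped a REXO4 peak. For the 88 genes the share of all genes lies between these 2 limits, and for the 76 it lies above both. No test of either difference was made. The nearest REXO4 peak was a median of 339 kb from the subunit genes and lay within 10 kb of 2 of them. NDUFV2, a core subunit of the NADH-oxidising part of complex I, ended 2.79 kb from a REXO4 peak at 9137126 to 9137584 on chromosome 18. That peak had a fold of 1.497 in the REXO4 list and a −log10 q of 1.07, and it reached NDUFV2-AS1 and ANKRD12. ATP5F1B, the catalytic beta subunit of ATP synthase, lay 3.05 kb from a REXO4 peak at BAZ2A, at 56634835 to 56635129 on chromosome 12, with a fold of 2.59 in the REXO4 list and a −log10 q of 11.6. Both of these REXO4 peaks overlapped an RNaseH1 peak outside the subunit gene's own windows.

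Where RNaseH1 peaks were present at subunit genes, they were deep in fragments and modest in fold. The highest boundary peak of a subunit gene had a median of 103 fragments at its summit (interquartile range 64.2 to 126) against an expected 33.0 (24.8 to 41.2). Over all protein-coding genes with a boundary peak the medians were 83 fragments and 24.4 expected. Fold had a median of 2.83 at subunit genes (2.48 to 3.28) and 3.17 at all protein-coding genes with a peak (2.75 to 3.69). Of the 76 subunit genes, 47 had a highest boundary fold under 3.07, the median of the whole RNaseH1 list (61.8%), against 43.8% of all protein-coding genes with a boundary peak. A fold above 4 was reached by 8 subunit genes (10.5%), against 16% of all. For 43 of the 76 genes the counting interval of the fold held the list median, for 21 it lay wholly below and for 12 wholly above. Requiring a −log10 q of at least 2 kept 76 subunit genes, against 65.8% of all protein-coding genes, and at least 5 kept 73, against 58.9%. The peaks were strong in the authors' calls all the same, with a median −log10 q of 16.8, against 15.7 over all protein-coding genes with a boundary peak.

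**Figure D2:**
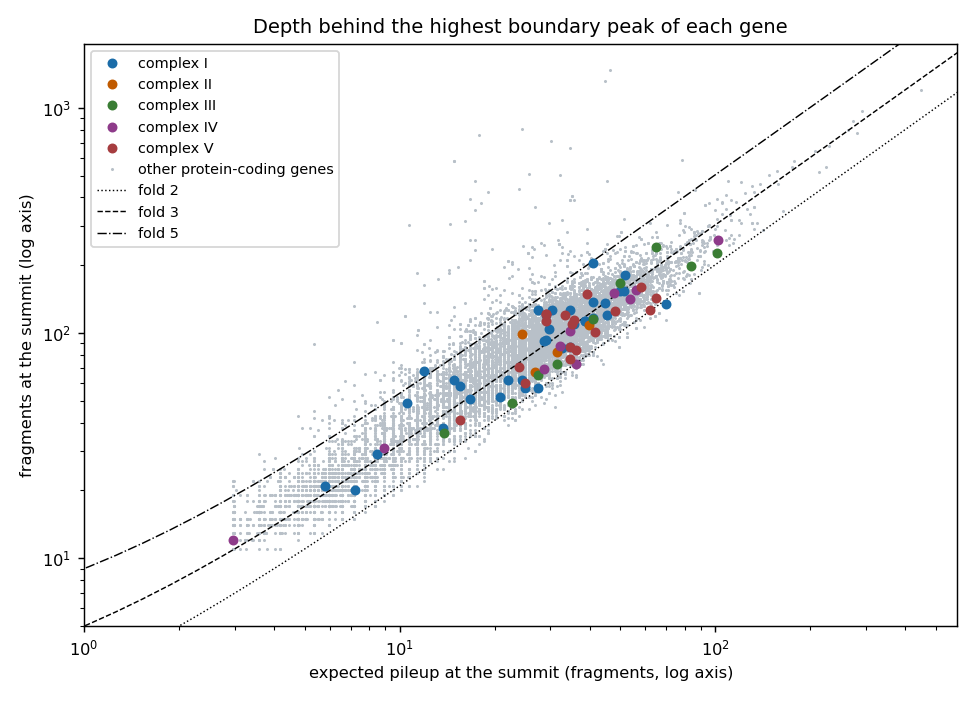
Fragments at the summit against expected pileup for the highest RNaseH1 boundary peak of each gene, on log axes, with subunit genes coloured by complex, other protein-coding genes in grey and lines of equal fold. Of the 76 subunit genes, 66 had a fold between 2 and 4 and 56 had an expected pileup of 20 to 60 fragments.

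Complex I genes had peaks at nearly every member and the highest folds. A boundary peak was present at 35 of 37 genes (94.6%), with a median fold of 3.02 and a range of 1.93 to 5.35. NDUFB11, a subunit of the membrane arm, had the highest fold of all subunit genes. Its peak, at 47144468 to 47145588 on chromosome X, had 5.35 (4.17 to 6.76) with 68 fragments against an expected 11.9, at percentile 98.0 of the RNaseH1 list. The same peak reached RBM10, an RNA-binding protein gene. Its summit lay 17 bp from an RBM10 start and 536 bp from the NDUFB11 start. The peak thus cannot be given to NDUFB11 alone. NDUFS7, a core subunit that carries an iron-sulfur cluster, had 4.90 (4.25 to 5.61) with 205 fragments against an expected 41.1 and no other gene in reach. Its −log10 q of 69.9 was the highest among the highest boundary peaks of the subunit genes. NDUFA10, an accessory subunit, had 4.48 (3.73 to 5.32), again with no other gene in reach. NDUFS6, a zinc-binding accessory subunit, had 4.32 (3.22 to 5.69) at a peak that also reached MRPL36. The summit of that peak lay 633 bp from an MRPL36 start and 937 bp from the NDUFS6 start. Another NDUFS6 boundary peak, with its summit 232 bp from the NDUFS6 start, had only 2.23 (1.80 to 2.74). The intervals of the 4 highest folds overlapped, so their order is within counting error.

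NDUFA5, an accessory subunit of the peripheral arm, was the only complex I gene with no RNaseH1 peak. Its 3 listed starts were at least 22652 bp from the nearest one, and the promoter windows of the 2 outer starts held 3 CpG each and the inner one 15. At the low end, NDUFC1 had a fold of 1.93 (1.62 to 2.28) and NDUFB5 2.04 (1.56 to 2.64). For NDUFC1 the depth was ample, with 135 fragments against an expected 69.6. Its interval lay wholly below those of the highest peaks of NDUFB11, NDUFS7, NDUFA10 and NDUFS6. The NDUFC1 peak also reached NAA15, and its summit lay 351 bp from the NAA15 start and 621 bp from an NDUFC1 start.

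All 4 complex II genes had a boundary peak. SDHD, a membrane anchor of succinate dehydrogenase, had 3.94 (3.21 to 4.78) at a peak that also reached TIMM8B. SDHA, the flavoprotein, had 2.67 (2.19 to 3.21), SDHC, the other anchor, 2.55 (2.03 to 3.16), and SDHB, the iron-sulfur protein, 2.45 (1.90 to 3.10). The SDHA peak also reached CCDC127. The interval of SDHD lay above that of SDHB and of SDHC and overlapped that of SDHA slightly. In complex III, 9 of 10 genes had a boundary peak, with a median fold of 2.36. CYC1, the cytochrome c1 gene, had 3.66 (3.21 to 4.15) with 240 fragments against an expected 64.9. UQCRQ had 3.29 (2.82 to 3.83) at a peak that also reached GDF9. UQCRC1, a core protein, had 2.76 (2.28 to 3.31), and UQCR11 2.49 (1.77 to 3.43). UQCRH, the hinge protein, had among the deepest peaks of the set, with 227 fragments, but an expected pileup of 101 left a fold of 2.23 (1.95 to 2.54). That peak also reached LRRC41, and its summit lay 708 bp from the LRRC41 start and 790 bp from the UQCRH start. UQCRHL, an intronless copy of UQCRH, had no peak.

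In complex V, 18 of 20 genes had a boundary peak, with a median fold of 2.64. ATP5MF, a subunit of the membrane part, had 4.08 (3.39 to 4.86), and the readthrough gene ATP5MF-PTCD1 has the same peak. ATP5F1D, a subunit of the central stalk, followed with 3.78 (3.12 to 4.54), then ATP5PD, of the peripheral stalk, with 3.72 (3.15 to 4.37). The summit of the ATP5PD peak lay 225 bp from a KCTD2 start and 481 bp from the ATP5PD start. ATP5PF, coupling factor 6, had 3.52 (2.93 to 4.21) at a peak that it shares with GABPA. GABPA encodes 1 of the factors known to act at subunit gene starts. These 4 folds had overlapping intervals. All 5 genes of the soluble part that holds the catalytic sites (ATP5F1A to ATP5F1E) had a boundary peak with a median fold of 2.71, as did 11 of 12 genes of the membrane part and stalk, with a median of 2.55. ATP5IF1, the inhibitor of ATP hydrolysis, had 2.196 (1.74 to 2.74). The genes ATP5MC1, ATP5MC2 and ATP5MC3 encode the same mature c subunit of the rotor ring. ATP5MC1 had 3.13 (2.59 to 3.76) and ATP5MC3 2.02 (1.68 to 2.40), intervals that do not overlap. ATP5MC2 had no boundary peak but had 1 inside, with 2.92 (2.40 to 3.52). ATP5MGL, a copy of ATP5MG, had no peak, while ATP5MG had 2.48 (1.99 to 3.05).

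**Figure D3:**
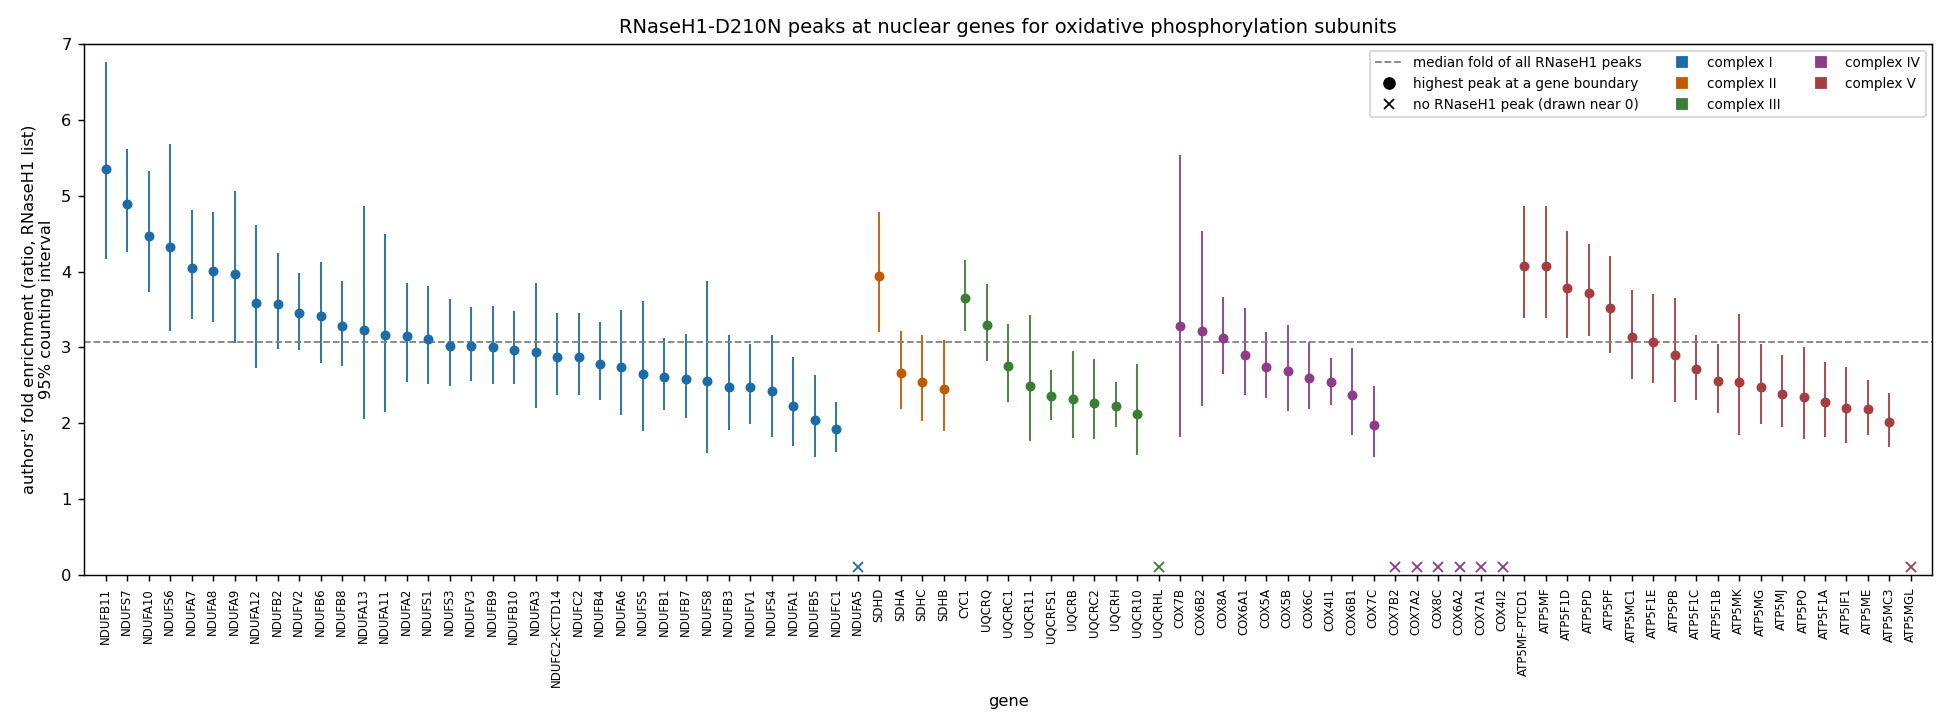
Authors' fold enrichment of the highest RNaseH1 peak at a boundary for 85 of the 88 subunit genes, by complex, with 95% counting intervals and the median of the whole list as a dashed line. The 3 genes with a peak inside only are not drawn, and crosses mark the 9 genes without a peak, 6 of them in complex IV.

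Complex IV had the lowest share of genes with a boundary peak, and the genes without one were mostly isoforms known for use in other tissues. A boundary peak was present at 10 of 17 genes (58.8%, 95% exact binomial interval 32.9 to 81.6), with a median fold of 2.71. The 4 highest were COX7B at 3.28 (1.82 to 5.54), COX6B2 at 3.22 (2.22 to 4.53), COX8A at 3.13 (2.65 to 3.66) and COX6A1 at 2.90 (2.37 to 3.51). The COX7B value rests on only 12 fragments against an expected 2.97. COX4I1, the broadly expressed form of subunit 4, had 2.54 (2.24 to 2.87) on 260 fragments, the most of any subunit gene's highest boundary peak. That peak also reached EMC8. COX4I2, the form of subunit 4 in lung and under hypoxia, had no peak. COX6A1 stood against COX6A2, the heart and skeletal muscle form, without a peak. COX8A stood against COX8C, a testis form, without one, and COX7B against COX7B2, also a testis form, without one. COX6B1 had 2.37 (1.85 to 2.99), and its testis form COX6B2 had a peak too. The COX6B2 summit lay 785 bp downstream of the listed start, and the peak also reached GARIN5B. COX7A1, the heart and skeletal muscle form of subunit 7A, had no peak.

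COX7A2, a broadly expressed form of subunit 7A, went against this pairing and had no RNaseH1 peak. Its 2 listed starts were 34200 bp and 36973 bp from the nearest one, although the promoter window of the inner start held 22 CpG. COX7A2L, which acts in assembling supercomplexes, had a peak inside only, with 2.88 (2.29 to 3.58). The summit of that peak lay 128 bp from an inner listed start of COX7A2L. In total, 5 of the 6 member genes listed as isoforms for other tissues or hypoxia had no peak. Over all protein-coding genes, 4273 of 19866 had no RNaseH1 peak. The isoform list also held COXFA4L2, which is not a member and had a boundary peak. Leaving out the 6 member isoform genes and the copies UQCRHL and ATP5MGL, 75 of 80 subunit genes had a boundary peak (93.8%, 86.0 to 97.9). All the genes left out except COX6B2 had no peak, so their removal by itself raised the share. The lists were chosen with earlier results known, and the 67.1% over all protein-coding genes was not filtered in this way. Of the 5 genes kept without a boundary peak, 3 had a peak inside, and NDUFA5 and COX7A2 had none. Outside the symbol rule, COXFA4, now counted with complex IV, had 3.89 (3.0001 to 4.97), its hypoxia-linked relative COXFA4L2 had 2.38 (1.67 to 3.30), and NDUFAB1 had 2.60 (2.12 to 3.15).

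RNaseH1 peaks lay at the starts and seldom at the ends of subunit genes. A strand was known for 70 of the 88 genes. Of these, 63 had a peak within 1 kb of the gene start (90%), against 65.6% of all protein-coding genes with a strand. At the gene end it was 7 (10%), against 11.5%, and all 7 had a peak at the start too. The summit of the highest boundary peak lay a median of 136 bp downstream of the nearest listed start (interquartile range −146 to 202.5, n = 63). Over all protein-coding genes it lay 98 bp downstream (−94 to 255, n = 10831). Within 500 bp of a start were 47 of 63 summits (74.6%), against 75.6% of all. In 37 genes the summit lay downstream and within 400 bp. In 13 it lay over 400 bp upstream, and 10 of those 13 peaks also reached the boundary window of another gene. Such genes include NDUFS6 with MRPL36, NDUFS1 with EEF1B2 and ATP5ME with MYL5. Only outer gene boundaries were counted, here and below, so the KCTD2 start near the ATP5PD summit was not.

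**Figure D4:**
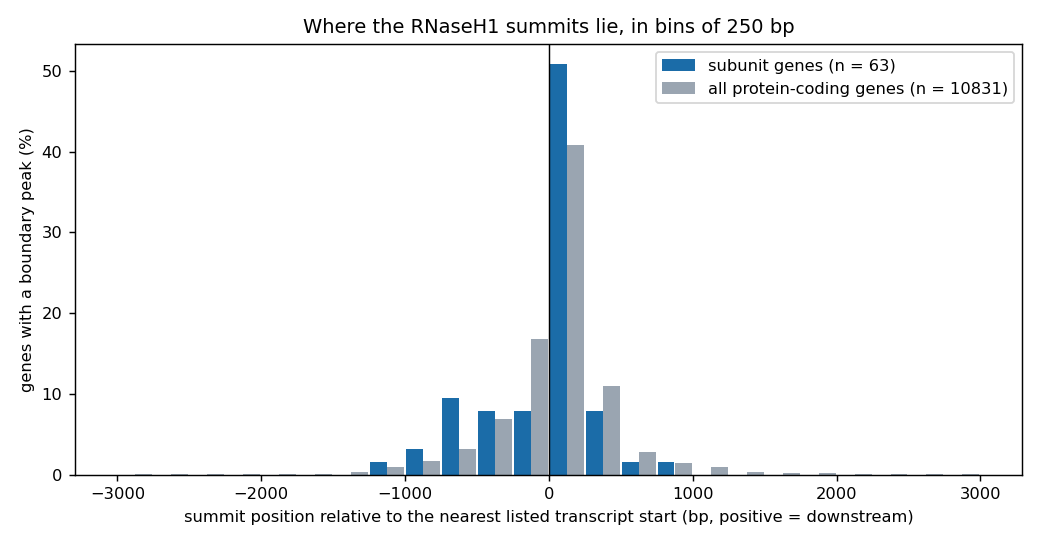
Position of the summit of the highest RNaseH1 boundary peak relative to the nearest listed transcript start, in bins of 250 bp, as a percentage of genes with such a peak. Both sets are highest in the 250 bp downstream of the start, and 9.52% of subunit genes against 3.25% of all protein-coding genes lie 500 to 750 bp upstream.

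Sharing a peak with a neighbouring gene was common. The highest boundary peak of 39 of 76 subunit genes (51.3%) also reached the boundary window of a neighbour, counting protein-coding and lncRNA genes, against 44.9% of all protein-coding genes with a boundary peak. The neighbours included other mitochondrial genes, such as MRPL47 beside NDUFB5 and TIMM8B beside SDHD. The median fold was 2.90 for subunit genes with such a neighbour and 2.74 for the 37 without. In 5 genes (NDUFA7, NDUFB6, NDUFA13, NDUFA11 and NDUFS8) the highest boundary peak lay at the gene end, and each had a lower one at the start. For NDUFA7 the end peak had 4.05 (3.38 to 4.82) and reached CD320, while the start peak had 2.87 (2.32 to 3.53). For NDUFB6 the end peak had 3.41 (2.80 to 4.13) and reached TOPORS, while the start peak had 1.91 (1.46 to 2.45), an interval below that of the end peak.

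Peaks inside subunit genes were of 2 kinds by depth. Of the 37 inside peaks, 30 had 15 to 39 fragments at the summit (median 20.0, expected 5.95), and 7 had 77 to 137 fragments (median 106, expected 30.4). This split was drawn after the values were seen, at the gap between 39 and 77. The folds of the shallow kind (median 3.13) were close to those of the deep kind (median 2.92), while the median −log10 q was 3.75 against 18.4. For comparison, the 103 boundary peaks had a median of 88 fragments against an expected 31.5. Of the 7 deep inside peaks, 4 had their summit within 1 kb of a listed transcript start, against 0 of the 30 shallow ones. In ATP5MC2 the summit lay 151 bp from an inner start of the gene, in COX7A2L 128 bp and in ATP5F1A 187 bp. In ATP5MF-PTCD1 it lay 57 bp from the start of CPSF4. The deepest, with 137 fragments, was in NDUFC1, 5521 bp from the nearest of its 4 listed starts. NDUFS4, NDUFA10 and NDUFA11 had 4, 3 and 3 inside peaks, all shallow. The highest inside fold, 4.60 (3.17 to 6.47) in NDUFB3, rested on 31 fragments.

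The promoter windows of subunit genes held letters for NRF1, ETS and YY1 more often than those of all protein-coding genes. The windows ran from 250 bases before to 50 bases after the outermost listed start, and were available from RefSeq (hg38) for 70 subunit genes among 15843 protein-coding genes. Matches to the NRF1 letters were found in 17 of 70 windows (24.3%, against 8.59%), to the ETS letters in 20 (28.6%, against 14.2%) and to the YY1 letters in 8 (11.4%, against 2.69%). At least 1 of these 3 was found in 38 of 70 (54.3%, against 22.7%). Sp/KLF letters (60%, against 58.3%) and CCAAT letters (35.7%, against 36.4%) were about as frequent as elsewhere. No test of these differences was made, and a match of letters is not a binding site. Of the 38 windows with NRF1, ETS or YY1 letters, 37 were at genes with an RNaseH1 boundary peak (97.4%), against 3263 of 3598 such windows over all protein-coding genes (90.7%). Of all 70 subunit windows, 63 were at genes with such a peak (90%). Among the 38 windows with these letters, the exception was COX8C, whose sequence is shown above. Among the 7 subunit genes with a window and no boundary peak, median CpG number was 6 and GC content 52.0%. Among the 63 with a peak these were 24 and 61.3%. Over all protein-coding genes the medians were 5 and 52.3% without a peak, against 26 and 65.7% with one. GC skew, the excess of G over C on the coding strand as a share of both, had a median of −0.048 in the subunit windows and 0.0079 in all windows.

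**Figure D5:**
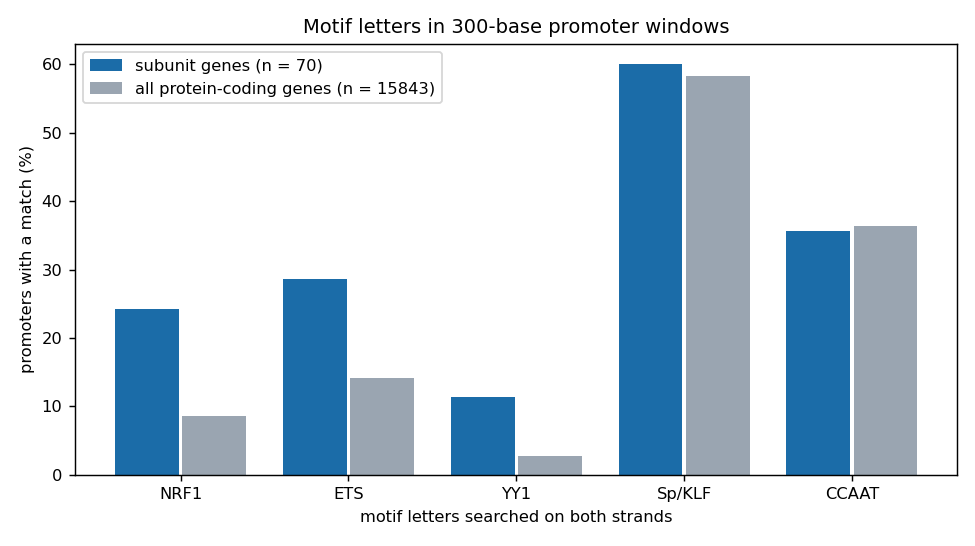
Percentage of promoter windows with at least 1 match to the letters of each motif on either strand, for 70 subunit genes and 15843 protein-coding genes. The subunit bars are higher for NRF1, ETS and YY1, and the bars for Sp/KLF and CCAAT differ by under 2 percentage points.

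Other nuclear genes of the same pathway had RNaseH1 peaks at every member of the lists used. Over all protein-coding genes, 67.1% had a boundary peak, with a median fold of 3.17 where present. All 48 assembly factor genes had a boundary peak, with a median fold of 2.98. The highest were COX20 at 4.89 (3.97 to 5.95), COA6 at 4.25 (3.51 to 5.11) and NDUFAF4 at 4.17 (3.40 to 5.06). All 18 tricarboxylic acid cycle and pyruvate dehydrogenase genes had one, with a median of 3.02, led by DLD at 3.35 (2.76 to 4.03), FH at 3.30 (2.59 to 4.15) and IDH3A at 3.25 (2.63 to 3.96). All 13 genes for coenzyme Q synthesis and cytochrome c had one, with a median of 3.39, led by COQ9 at 4.86 (4.08 to 5.75), COQ5 at 3.78 (3.03 to 4.66) and HCCS at 3.77 (2.95 to 4.74). All 13 regulators had one too, with a median of 3.52, led by TEFM at 4.81 (4.06 to 5.65), PPARGC1A at 4.81 (3.60 to 6.29) and ESRRA at 4.21 (3.48 to 5.05). Of 2 larger sets, cytosolic ribosomal protein genes had a boundary peak at 86 of 93 (92.5%, median fold 3.07) and mitochondrial ribosomal protein genes at 72 of 77 (93.5%, median fold 3.19). Over all 88 subunit genes the share was 86.4% and the median fold 2.83. The ribosomal sets were taken by symbol and keep their own isoforms and copies. The cytosolic set also holds readthrough genes, RPS19BP1 by its symbol alone, and RPS4Y1 and RPS4Y2 of chromosome Y, which had no peak. The share of subunit genes without isoforms and copies is therefore not set beside the ribosomal sets.

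The shares of genes with a REXO4 boundary peak in the related lists lay on both sides of the 3.82% of all protein-coding genes. Cytosolic ribosomal protein genes had 0 of 93. Mitochondrial ribosomal protein genes had 2 of 77 (2.60%), at MRPL40 and MRPS6. Among the 48 assembly factors, 1 gene (2.08%) had a REXO4 boundary peak. This was TTC19, which acts on complex III, with a fold of 1.74 in the REXO4 list. NDUFAF6 had a REXO4 peak inside only, at 2.69. Among the regulators, YY1 had a boundary peak with 2.31 and PPRC1, a relative of the coactivator PPARGC1A, one with 1.51 in the REXO4 list. The tricarboxylic acid cycle list and the coenzyme Q list had none. The exact binomial interval of the regulators, 2 of 13 genes (15.4%, 1.92 to 45.4), held the share of all genes, and no test of these counts was made.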

How the data were processed

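Flag ChIP-seq of U2OS cells gave 12 libraries, from which 2 peak lists were used. The build was hg38, and MACS2 2.1.0.20150731, SAMtools 1.17, HISAT2 2.2.1, deepTools 3.5.1, Trim Galore 0.6.10 and Cufflinks are named, per the submitters' processing notes. The sources used here do not say which libraries entered each list, which control was used, whether replicates were pooled or what peak threshold was set. Fold enrichment, a ratio per peak, and each peak's −log10 p and −log10 q were deposited by the authors. The summit offset within each peak is also as deposited.

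All else was computed here. Fragments and expected pileup at each summit were recovered from fold and p, with 1 added to each side of the ratio and a Poisson tail, within 0.05 of a whole number for 1459 of 1460 REXO4 peaks and all 54623 RNaseH1 peaks. The precision of each fold rests on these fragments. Of 59792 genes in the RefSeq table, 831 without a position on a nuclear chromosome, or out of coordinate order there, were left out. Strand came from the RefSeq promoter table, which covered 70 members.

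No samples were compared and no test was run, since no value per library was used. Counts stand beside those over all protein-coding genes. The 95% intervals of shares are exact binomial, the limit for a count of 0 is 3 genes of the total, and both cover counting error only. The rule for named genes took the 4 highest folds per complex, every gene without a boundary peak, the isoform pairs, and up to 3 genes per other list plus those with a REXO4 peak. The values of 1 member that the rule names are not reported here. Other genes were named after their values were seen. NDUFA4 and NDUFA4L2, listed as isoforms, were given under their current symbols. Members and lists were chosen with earlier results of these data known. The recovery and the boundary call were tested on simulated data. Software was matplotlib 3.10.9, pandas 2.3.3, SciPy 1.17.1 and NumPy 2.4.6 under Python 3.11.15.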

Additional observations from a re-analysis of the deposited data

How the results depend on the processing

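The counts and the median fold at subunit genes moved little under the alternatives tried. The count of 76 subunit genes with an RNaseH1 boundary peak was 75 with a window of 500 bp on either side, 78 with 2500 bp, 76 with summits inside the window, 76 with a −log10 q of at least 2, 73 with at least 5, and 74 of 86 without readthrough genes. At gene starts only it was 63 of 70, and at any listed transcript start, an alternative added after the values were seen, 65 of 70. The count of REXO4 boundary peaks was 0 under every alternative, and so was the count of shared peaks, also under both other definitions of overlap. The count of genes with an inside peak only was 2 to 4, and the median fold 2.76 to 2.90. No paired analysis was possible because the lists hold no value per replicate, and for the same reason no replicate could be left out. Depth limits the folds of single genes: 4 of the 76 highest boundary peaks rested on 30 or fewer fragments. The libraries behind each list are not known, so a doxycycline effect was not analysed here.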
